A study of Gallus gallus with 28 samples.

Results

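The 24 to 48 h step of untreated chicken basilar papilla was read from 4 libraries of the 28 used in the series, 2 control libraries at 48 h against 2 control libraries at 24 h. Members were taken by treatment and time from the sample labels, and the rule itself uses no measured value. The whole series held 13 control and 15 streptomycin-treated libraries at 8 time points from 0 to 168 h. Both control groups carried the treatment label "none". No strain, age or sex is given, and how control papillae were kept between 24 and 48 h is not stated. The shared protocol describes dissection of papillae, 24 h of streptomycin and a recovery period, and the point from which the hours of the controls count is not stated. Streptomycin-treated libraries at the same times (2 and 2) and controls at 0 h (2) are used for comparison. Each of these groups held 2 libraries, called library 1 and library 2. The series text calls the samples of a time point biological, and nothing says whether they came from separate animals or cultures. The p-values thus measure the spread between libraries of a group, estimated over the control and treated groups of the series with 2 libraries. Of the 16 groups, controls at 72, 96 and 120 h and treated papillae at 96 h held 1 library and add no such spread.

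The basilar papilla is the hearing epithelium of birds, a sheet of mechanosensory hair cells separated by supporting cells under a tectorial membrane. Supporting cells can divide or change directly into new hair cells after damage, and the transcription factor ATOH1 is the switch that starts a hair cell programme. A dissected papilla also carries connective tissue, ion-transporting epithelium, nerve endings, pigment cells and resident macrophages, all of which add RNA to a bulk library. In such libraries fewer cells of a type and less RNA per cell cannot be told apart.

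The 4 libraries held 25.14 and 19.93 M alignments at 24 h and 35.23 and 19.96 M at 48 h, within 16.48 to 38.17 M over the series. Values are RPKM, in which the authors scaled reads to gene length and library size, so levels of different genes are per length. Defining genes of the tissue were present in all 4 libraries. Among hair cell genes, OTOF (otoferlin) was at 52.7 to 99.5 RPKM, MYO7A at 14.4 to 29.2 RPKM and TMC2 at 18.8 to 47.9 RPKM. Among genes of supporting cells and of the tectorial membrane they make, SOX2 was at 12.9 to 25.1 RPKM, GJB6 at 27.8 to 38.7 RPKM and TECTA at 11.8 to 74.2 RPKM. Across genes the 24 h libraries correlated with each other at r = 0.977 and the 48 h libraries at 0.988, against 0.968 to 0.975 between the times, where genes are not independent replicates.

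ATOH1, the peptide genes RLN3, VIP, PENK and NMU and the cadherin gene CDH20 fell between 24 and 48 h in controls. BPI, APOA1, APOD, the macrophage genes C1QB, NCF1, LY86 and CTSS, 7 genes of the matrix lists, among them MMP2 and COL5A2, and the hair cell channel gene TMC2 rose. Of 12195 features tested, 131 (1.07%) passed limma's moderated test at a Benjamini-Hochberg adjusted p under 0.05. The 90 that rose (0.738% of those tested) had log2 differences of 0.61 to 2.55 and the 41 that fell (0.336%) had sizes of 0.55 to 2.04, on the scale of log2(RPKM + 1). At 2-fold or more on that scale there were 37 rises and 23 falls. In all 131 the 48 h libraries lay on one side of both 24 h libraries, a pattern that 31.1% of tested features showed upward and 17.3% downward. The median difference over all tested features was 0.08, and 59.8% of them had a positive value. The sign counts of the lists below stand beside that share. List counts at an unadjusted p under 0.05 have no such share beside them, so they show no trend of a list. The calls rest on few libraries: without library 1 at 24 h no feature passed, although 1333 had an unadjusted p under 0.05. Without 24 h library 2, 48 h library 1 or 48 h library 2 the counts were 56, 2 and 8. Equalising the libraries by a median-of-ratios factor gave 100 rises and 156 falls, so that 39.1% of calls were upward against 68.7%. None of the 131 features changed direction in any of the 13 alternatives tried, but only the rescaling could have reversed one. With groups that do not overlap, leaving out 1 library or changing the other settings cannot.

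**Figure D1:**
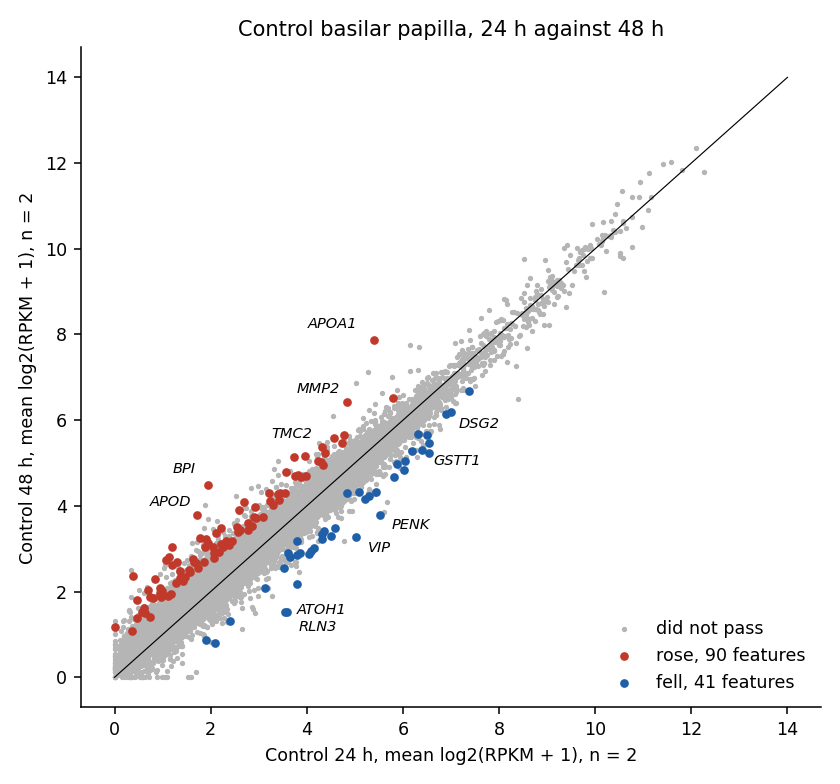
Each point is 1 of 12195 features, with its mean log2(RPKM + 1) over the 2 control libraries at 24 h (x axis) and at 48 h (y axis); red points rose (90), blue points fell (41) and grey points did not pass. RLN3 and ATOH1 lie farthest below the diagonal among the falls and BPI and APOA1 farthest above it among the rises.

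The proneural factor ATOH1 was at 12.9 and 8.77 RPKM at 24 h and at 1.83 and 1.91 RPKM at 48 h. Both 48 h libraries were far below both 24 h libraries, and the mean was 5.79-fold lower. The fitted log2 difference was -2.02 ± 0.34 (SE, n = 2 and 2; limma, adjusted p = 0.0166). The 24 h level was itself above that at 0 h, where controls held 2.22 and 3.89 RPKM, and in 7 control libraries from 72 to 168 h ATOH1 stayed between 0.587 and 2.18 RPKM. High values in controls were thus those of the 24 h libraries, with 0 h, 48 h and every later control library at or below 3.89 RPKM.

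ATOH1 was the 1 gene to pass among 10 tested factors of early hair cells, where 0.336% of all tested features fell. GFI1, a zinc finger factor that acts after ATOH1, was at 8.42 and 12 RPKM at 24 h and at 15.8 and 16.1 RPKM at 48 h, a log2 difference of 0.62 with an adjusted p of 0.188 in limma. POU4F3, a POU factor needed for hair cell survival, was at 6.32 and 9.60 RPKM and then at 14.3 and 12.3 RPKM, with 0.70 and an adjusted p of 0.149. Neither gene passed. In each, both 48 h libraries were above both 24 h libraries, as in 31.1% of all tested features. Over the list 8 of 10 members had positive values, with a median of 0.19. In the Notch pathway, which restrains ATOH1 through lateral inhibition, 0 of 16 tested members passed by limma and 3 had an unadjusted p under 0.05 upward. They were the receptor NOTCH2 (0.61), the co-activator MAML1 (0.56) and the target HES1 (0.80). Downward, 1 had an unadjusted p under 0.05: another target, HEY1, was at 419.1 and 573.5 RPKM and then at 284.5 and 310.7 RPKM, with a log2 difference of -0.72 and an adjusted p of 0.192.

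The genes of 4 secreted neuropeptides and peptide hormones were among the 12 largest falls. These 4 were grouped after their values were seen and not from a list, so their number has no background. RLN3, the gene of relaxin-3, was at 12.3 and 9.72 RPKM at 24 h and at 1.76 and 2.04 RPKM at 48 h. Its groups were far apart, with a log2 difference of -2.04 ± 0.29 (limma, adjusted p = 0.00442). VIP, encoding vasoactive intestinal peptide, was at 34.8 and 28.3 RPKM and then at 10.9 and 6.94 RPKM, with -1.74 ± 0.37 and an adjusted p of 0.0382. PENK, the precursor of the enkephalins, was at 42.4 and 47.1 RPKM and then at 13.03 and 12.6 RPKM, with -1.73 ± 0.32 and an adjusted p of 0.0253. NMU, encoding neuromedin U, was at 23.1 and 20.3 RPKM and then at 8.12 and 9.47 RPKM, with -1.21 ± 0.27 and an adjusted p of 0.0399. In all 4 genes the groups did not overlap, which the rule for the largest falls required. RLN3 passed in 11 of the 13 alternatives and PENK in 9, but VIP and NMU in only 5 each. The later controls were at or below the 48 h mean in the median: 1.43 RPKM for RLN3, 1.82 for VIP, 9.44 for PENK and 2.81 for NMU. The genes differed before 24 h: RLN3 was highest at 0 h (20.7 and 20.0 RPKM), while PENK (22.7 and 24.7 RPKM), VIP (22.2 and 13.4 RPKM) and NMU (14.1 and 13.4 RPKM) were lower at 0 h than at 24 h. In the neuron marker list, 1 of 20 tested members rose and none fell by limma (4 had an unadjusted p under 0.05). Over all tested features 0.738% rose and 0.336% fell. The summed level of the list was 804.9 and 805.8 RPKM at 24 h and 747.4 and 725.0 RPKM at 48 h.

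CDH20, SEMA6D and DSG2, genes of cell surface proteins, fell as well. CDH20, a classical cadherin, was at 10.8 and 15.1 RPKM at 24 h and at 3.87 and 3.15 RPKM at 48 h, with a log2 difference of -1.62 ± 0.26 (limma, adjusted p = 0.0121). SEMA6D, a transmembrane semaphorin, was at 51.7 and 58.2 RPKM and then at 22.2 and 26.7 RPKM, 2.25-fold lower in the mean. DSG2, the desmosomal cadherin desmoglein 2, was at 149.2 and 94.8 RPKM and then at 65.7 and 73.8 RPKM (log2 difference -0.76, and -0.44 with an adjusted p of 0.383 in limma without 24 h library 1). CDH20 and DSG2 were the calls among 42 tested junction genes, where 0.336% of all tested features fell. The median of the 42 was 0.04. That median is -0.00 after the median-of-ratios rescaling, so the list as a whole has no stable direction.

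Enzymes, transporters and signalling regulators made up most of the other large falls. RCAN2, a calcineurin inhibitor, was at 16.2 and 14.9 RPKM at 24 h and at 6.42 and 6.18 RPKM at 48 h, with a log2 difference of -1.18 ± 0.17 (limma, adjusted p = 0.00557). PADI3, which converts protein arginine to citrulline, was at 62.1 and 66.6 RPKM and then at 28.9 and 26.03 RPKM, with -1.20 ± 0.21 and an adjusted p of 0.0178. RGS9, a brake on G protein signalling known from photoreceptors, was at 16.1 and 15.8 RPKM and then at 7.91 and 5.72 RPKM (-1.13). In each of these falls the groups did not overlap, which the rule for the largest falls required. ARHGEF4, a guanine nucleotide exchange factor, differed by -1.13, and ANGPTL7, a secreted angiopoietin-like protein at 2.66 and 3.94 RPKM at 24 h, by -1.28. SLC1A3, the glutamate and aspartate transporter of glia and of inner ear supporting cells, was at 40.5 and 31.8 RPKM and then at 17.1 and 16.9 RPKM (-1.03 ± 0.23, adjusted p = 0.0399). GSTT1, a glutathione transferase, differed by -1.08, and GPAM, which starts glycerolipid synthesis, by -0.85.

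SLC1A3 was the single call among 22 tested genes of supporting cells and the prosensory domain, where 0.336% of all tested features fell. Of the 22, 11 had positive and 11 negative values, and the median was -0.05. The summed level of the 23 listed genes was 1810 and 2103 RPKM at 24 h and 1225 and 1397 RPKM at 48 h, with no overlap. Most of that sum was TECTB, a tectorial membrane protein at 1350 and 1600 RPKM and then at 811.7 and 1004 RPKM, which did not pass (log2 difference -0.70, limma adjusted p = 0.535). TECTA, its larger partner, was at 74.2 and 30.4 RPKM and then at 11.8 and 15.4 RPKM (-1.74, adjusted p = 0.175), with the 24 h libraries far from each other. SOX2, the factor that marks supporting cells and progenitors, was at 19.4 and 25.1 RPKM and then at 15.7 and 12.9 RPKM (-0.59, adjusted p = 0.16). The gap junction gene GJB6 was at 37.4 and 38.7 RPKM and then at 28.9 and 27.8 RPKM (-0.41, adjusted p = 0.575). None of these 4 genes passed. The 48 h libraries of each lay below those of 24 h, as in 17.3% of all tested features. Other prosensory genes had positive values that did not pass, among them PAX2 (0.82) and HES1 (0.80).

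**Figure D2:**
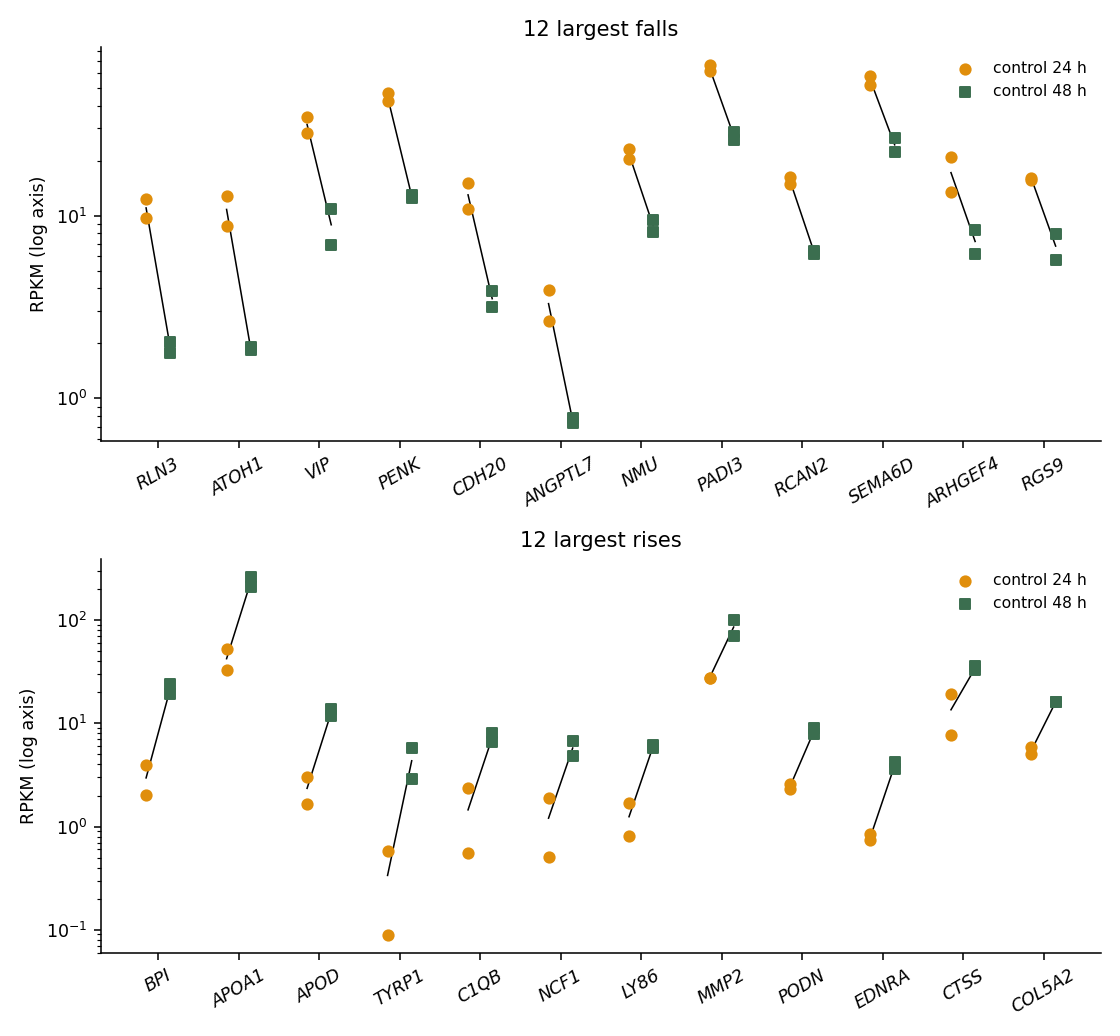
RPKM on a log axis in each control library (circles 24 h, squares 48 h) for the 12 largest falls and 12 largest rises; lines join the group means. By the rule of choice, the 48 h squares lie below both 24 h circles in every fall and above both in every rise. The 24 h libraries of C1QB, NCF1 and TYRP1 are far apart.

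The largest log2 differences upward among named genes that passed were those of BPI, APOA1 and APOD, which encode lipid-binding proteins. With a pseudocount of 0.1 in place of 1 the low-level TYRP1 (3.55) came above BPI (2.90), APOA1 (2.50) and APOD (2.45). In that setting TYRP1 did not pass (± 0.90, limma adjusted p = 0.0707), while the other 3 genes did. BPI, of the family of lipopolysaccharide-binding proteins, was at 2.02 and 3.91 RPKM at 24 h and at 24.0 and 19.4 RPKM at 48 h, 7.33-fold higher in the mean. Its log2 difference was 2.55 ± 0.35 (limma, adjusted p = 0.00442). APOA1, the main protein of high-density lipoprotein, was at 32.6 and 52.2 RPKM and then at 262.3 and 208.1 RPKM, with 2.47 ± 0.50 and an adjusted p of 0.0361. APOD, a lipocalin that carries small lipids, was at 1.67 and 3.02 RPKM and then at 13.65 and 11.9 RPKM, with 2.07 ± 0.23 and an adjusted p of 0.00098. The groups did not overlap in any of the 3 genes, which the rule for the largest rises required. APOD passed in 12 of the 13 alternatives, BPI in 11 and APOA1 in 7. Without 24 h library 1 the difference of APOD was 1.77. APOA1 continued to higher values, with 424.5 to 849.1 RPKM in the 7 later control libraries, and BPI reached 25.5 to 96.7 RPKM. SCARB1, the receptor that takes up lipid from high-density lipoprotein, also rose (10.9 and 15.5 RPKM, then 21.9 and 29.6 RPKM; 0.92), a gene singled out after its values were seen.

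Macrophage genes formed the largest group of list members that rose. Of 39 tested genes of leukocytes and macrophages 4 passed upward and none downward, beside 0.738% of all tested features that rose. C1QB, a chain of complement C1q made by tissue macrophages, was at 0.56 and 2.35 RPKM at 24 h and at 8.02 and 6.54 RPKM at 48 h (1.85 ± 0.42; limma, adjusted p = 0.0435). NCF1, a subunit of the phagocyte NADPH oxidase, was at 0.504 and 1.91 RPKM and then at 6.69 and 4.85 RPKM (1.68 ± 0.35, adjusted p = 0.0373). LY86, a partner of a Toll-like receptor homologue, was at 0.805 and 1.69 RPKM and then at 5.80 and 6.23 RPKM (1.67 ± 0.37, adjusted p = 0.0403). CTSS, the lysosomal cathepsin S of antigen-presenting cells, was at 7.73 and 19.4 RPKM and then at 32.8 and 35.8 RPKM (1.4 ± 0.31, adjusted p = 0.0403). The 48 h values were above both 24 h values in all 4 genes, which the rule for the largest rises required. Library 1 was the lower of the 24 h libraries each time. Over the list 35 of 39 members had positive values, against 59.8% of all tested features, and the median was 0.63 against 0.08. It ranged from 0.48 to 0.72 when 1 of the 4 libraries was left out. Without 24 h library 1 the difference of CTSS was 0.79 (adjusted p = 0.34). The globin genes of red blood cells were also low in 24 h library 1 and high in library 2, with HBAA at 3.34 and 36.6 RPKM and HBM at 1.16 and 17.1 RPKM, beside 7.62 and 3.37 RPKM and 1.89 and 0.666 RPKM at 48 h. The part of blood content in the macrophage values was not tested.

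Members that did not pass included the macrophage growth factor receptor CSF1R (0.67), the myeloid factor SPI1 (0.92) and the scavenger receptor MARCO (1.34). The antigen-presentation chain CD74 was at 18.7 and 37.1 RPKM and then at 35.1 and 59.9 RPKM, groups that overlapped (0.78, limma adjusted p = 0.257). T cell genes had values near 0 or below, with CD3E at -0.17 and CD3D at -0.04. The summed level of the list was 175.8 and 269.9 RPKM at 24 h and 322.3 and 328.5 RPKM at 48 h, beside 303.9 and 299.1 RPKM at 0 h, with 1 of 46 listed genes at 0 in all 4 libraries. Its most abundant member, AIF1L, was at 64.0 to 84.8 RPKM and had a negative value (-0.36). The sum was thus lowest in the 24 h libraries and close between 0 and 48 h, while C1QB, NCF1 and LY86 were at 0.524 to 1.75 RPKM at 0 h. In later controls C1QB was at 10.5 to 24.4 RPKM. The part of macrophage number in these values was not tested.

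In the 3 lists of genes that build and cut extracellular matrix 7 members rose and 0 fell by limma at the adjusted threshold (6 had an unadjusted p under 0.05 downward). Over all tested features 0.738% rose and 0.336% fell, and the number tested is given with each list. MMP2, a gelatinase, was at 27.3 and 27.8 RPKM at 24 h and at 101.4 and 70.3 RPKM at 48 h, with a log2 difference of 1.58 ± 0.28 (limma, adjusted p = 0.0179). MMP11, the metalloprotease stromelysin-3, was at 2.80 and 2.72 RPKM and then at 7.85 and 8.77 RPKM (1.31 ± 0.27). The 24 h libraries of both genes were nearly equal, and both 48 h libraries were well above them. MMP2 and MMP11 were the calls among 36 tested proteases and inhibitors, of which 30 had positive values with a median of 0.38. Of all tested features 59.8% were positive, with a median of 0.08. MMP9, another gelatinase and the most abundant of the list's metalloproteases, was at 282.9 and 479.9 RPKM and then at 1038 and 734.6 RPKM and did not pass (1.24 ± 0.56, adjusted p = 0.285).

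Among 44 tested collagens and fibrillar matrix genes 3 rose and none fell, where 0.738% of all tested features rose. COL5A2, a chain of the fibril-nucleating collagen V, was at 5.10 and 5.89 RPKM and then at 16.3 and 15.9 RPKM (1.4 ± 0.31; limma, adjusted p = 0.0403). LOXL2, a cross-linking lysyl oxidase, was at 5.21 and 4.87 RPKM and then at 10.7 and 17.8 RPKM (1.30). PLOD1, which hydroxylates lysine in collagen, was at 17.7 and 17.96 RPKM and then at 32.6 and 31.4 RPKM (0.81 ± 0.14, adjusted p = 0.0189). In each the groups did not overlap, as in every call. The chains of collagen I had larger values but did not pass, with COL1A1 at 19.4 and 25.6 RPKM and then at 68.4 and 66.7 RPKM (1.56, adjusted p = 0.11) and COL1A2 at 1.65 (adjusted p = 0.0957). Their standard errors, 0.46 and 0.47, came from the spread within groups over the whole series. COL14A1 had a negative value, with 65.0 and 36.2 RPKM and then 24.1 and 27.8 RPKM (-0.88, adjusted p = 0.0969).

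In the adhesive matrix list, with laminins and integrins, 2 of 44 tested genes rose and none fell, beside 0.738% of all tested features that rose. LAMC1, the gamma chain shared by most laminins, was at 53.8 and 54.6 RPKM and then at 88.8 and 91.5 RPKM (0.72 ± 0.13; limma, adjusted p = 0.0204). AGRN, the basement membrane proteoglycan agrin, was at 25.1 and 27.7 RPKM and then at 44.6 and 53.8 RPKM (0.87 ± 0.18, adjusted p = 0.0364). Both genes were above their 24 h values at 0 h, with 72.0 and 75.4 RPKM for LAMC1 and 39.7 and 48.3 RPKM for AGRN. Fibronectin (FN1) was at 68.8 and 71.2 RPKM and then at 143.8 and 137.5 RPKM and did not pass (1.0 ± 0.51, adjusted p = 0.353), nor did POSTN, periostin, at 2.28 and 3.11 and then 16.1 and 14.3 RPKM (2.14 ± 0.54, adjusted p = 0.0644). The hyaluronan receptor CD44 had a negative value (-0.96, adjusted p = 0.0649).

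None of the mesenchymal markers passed by limma: 0 of 29 tested, with 12 at an unadjusted p under 0.05, all upward. The share of all features at that unadjusted level is not given here, so the 12 have no background. Of the 29, 26 had positive values and the median was 0.56, against 59.8% and 0.08 over all tested features. PDGFRB, the receptor of pericytes and fibroblasts, was at 3.17 and 2.58 RPKM and then at 11.99 and 12.07 RPKM (1.75, adjusted p = 0.0708), and decorin (DCN) was at 11.9 and 11.1 RPKM and then at 30.2 and 24.1 RPKM (1.16, adjusted p = 0.149). Vimentin (VIM), the intermediate filament of mesenchyme, was at 1043 to 1340 RPKM in the 4 libraries and overlapped (0.11). The summed level of the list was 1265 and 1563 RPKM at 24 h and 1566 and 1656 RPKM at 48 h, most of it VIM. PODN, the leucine-rich proteoglycan podocan, rose from 2.30 and 2.58 RPKM to 7.93 and 9.08 RPKM (1.46 ± 0.19, adjusted p = 0.00276), and EDNRA, the endothelin receptor of smooth muscle and mesenchyme, rose from 0.856 and 0.739 RPKM to 3.63 and 4.21 RPKM (1.45 ± 0.21, adjusted p = 0.00554). The part of mesenchymal cells in the matrix values was not tested.

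TYRP1, a pigment enzyme of melanocytes, rose from 0.0894 and 0.583 RPKM to 2.91 and 5.77 RPKM (1.97 ± 0.45; limma, adjusted p = 0.0435). It was the single call among 16 tested melanocyte genes, where 0.738% of all tested features rose. The summed level of the list was 103.1 and 109.8 RPKM at 24 h and 108.5 and 118.8 RPKM at 48 h, groups that overlapped. SOX10 (44.5 to 56.2 RPKM) and RAB27A (18.6 to 23.1 RPKM) made up most of that sum. The lists of endothelium and pericytes (16 tested), of erythrocytes and thrombocytes (13), of cartilage (24), of muscle (17) and of keratins (25) held no call in either direction by limma, with 4 to 9 members of each at an unadjusted p under 0.05. Of these 5 lists the highest median was 0.26, that of endothelium, and the lowest 0.09, that of muscle. Among 14 tested glial genes APOD passed, where 0.738% of all tested features rose, and the median was -0.03.

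Among 53 tested genes of hair cell function, 43 had positive values, the median was 0.26 and 1 passed. Over all tested features 59.8% were positive, the median was 0.08 and 0.738% passed upward. TMC2, a subunit of the mechanotransduction channel, was at 18.9 and 18.8 RPKM at 24 h and at 47.9 and 33.7 RPKM at 48 h, 2.17-fold higher in the mean. The log2 difference was 1.05 ± 0.17 (limma, adjusted p = 0.0122). That standard error pools the spread of control and treated groups. Treated libraries at 24 and 48 h held TMC2 at 0 to 0.135 RPKM, where values can vary little on the log2(RPKM + 1) scale. The error may thus be smaller than the spread among controls alone would give. At 0 h the controls had held 40.0 and 39.1 RPKM, so TMC2 was lowest of the 3 times in the 24 h libraries. It was 52.0 RPKM in the single library at 72 h, and in the other 6 later control libraries between 5.06 and 22.9 RPKM.

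Other genes of the bundle and synapse had positive values that did not pass. MYO7A, a bundle motor, was at 14.4 and 14.7 RPKM and then at 29.2 and 22.5 RPKM (0.78, limma adjusted p = 0.083), and SLC17A8, the vesicular glutamate transporter, was at 13.98 and 14.4 RPKM and then at 31.0 and 21.3 RPKM (0.81, adjusted p = 0.0707). OTOF, the calcium sensor of the synapse, was at 52.7 and 67.0 RPKM and then at 99.5 and 86.3 RPKM (0.63, adjusted p = 0.42). All 3 genes had higher values in both 48 h libraries than in both 24 h libraries, as did 31.1% of all tested features. CALB1, a calcium buffer, had a negative value that did not pass (466.9 and 229.2, then 179.4 and 129.1 RPKM; -1.10, adjusted p = 0.196). The summed level of the list overlapped between the times, at 1598 and 1531 RPKM and then 1849 and 1468 RPKM. KCNAB2, a potassium channel subunit, rose from 10.8 and 14.4 RPKM to 25.4 and 24.9 RPKM (0.96 ± 0.20, adjusted p = 0.038). It was the 1 call among 40 tested potassium channel genes, where 0.738% of all tested features rose. As for TMC2, the standard error draws on treated groups with low values, 0.74 to 1.30 RPKM for KCNAB2 at 24 and 48 h.

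Single genes rose in several signalling lists. FGF3, a growth factor of ear development, was at 5.41 and 4.37 RPKM at 24 h and at 10.6 and 10.1 RPKM at 48 h (0.96 ± 0.17; limma, adjusted p = 0.0178), beside 17.5 and 17.8 RPKM at 0 h. Its standard error also draws on treated groups, where FGF3 was at 0 to 0.203 RPKM at 24 and 48 h. The same holds for NTRK3 below, at 0.223 to 0.489 RPKM in those treated libraries. WNT5A, a ligand of planar polarity, was at 1.70 and 2.17 RPKM and then at 4.83 and 4.46 RPKM (0.95 ± 0.20), beside 5.09 and 5.44 RPKM at 0 h. SMAD3, the transducer of TGF-beta signals, was at 12.9 and 14.7 RPKM and then at 24.7 and 24.5 RPKM (0.79 ± 0.18), beside 21.1 and 22.5 RPKM at 0 h. In all 3 genes the 24 h libraries held the lowest control values among 0, 24 and 48 h. The genes were named for their rise after 24 h, and the comparison with 0 h uses the same 24 h libraries. OSMR, the oncostatin M receptor, rose by 0.81, and NTRK3, the neurotrophin-3 receptor, rose from 0.594 and 0.528 RPKM to 2.36 and 1.39 RPKM (0.86). Each was the only call of its list: 1 of 29 FGF, 1 of 48 Wnt, 1 of 42 BMP and TGF-beta, 1 of 23 JAK/STAT and 1 of 20 neuron genes, where 0.738% of all tested features rose, so these counts say little about the lists as a whole. BMP4, a ligand of the sensory domain, was at 12.7 and 17.1 RPKM and then at 20.7 and 17.5 RPKM and did not pass (0.34, adjusted p = 0.521).

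**Figure D3:**
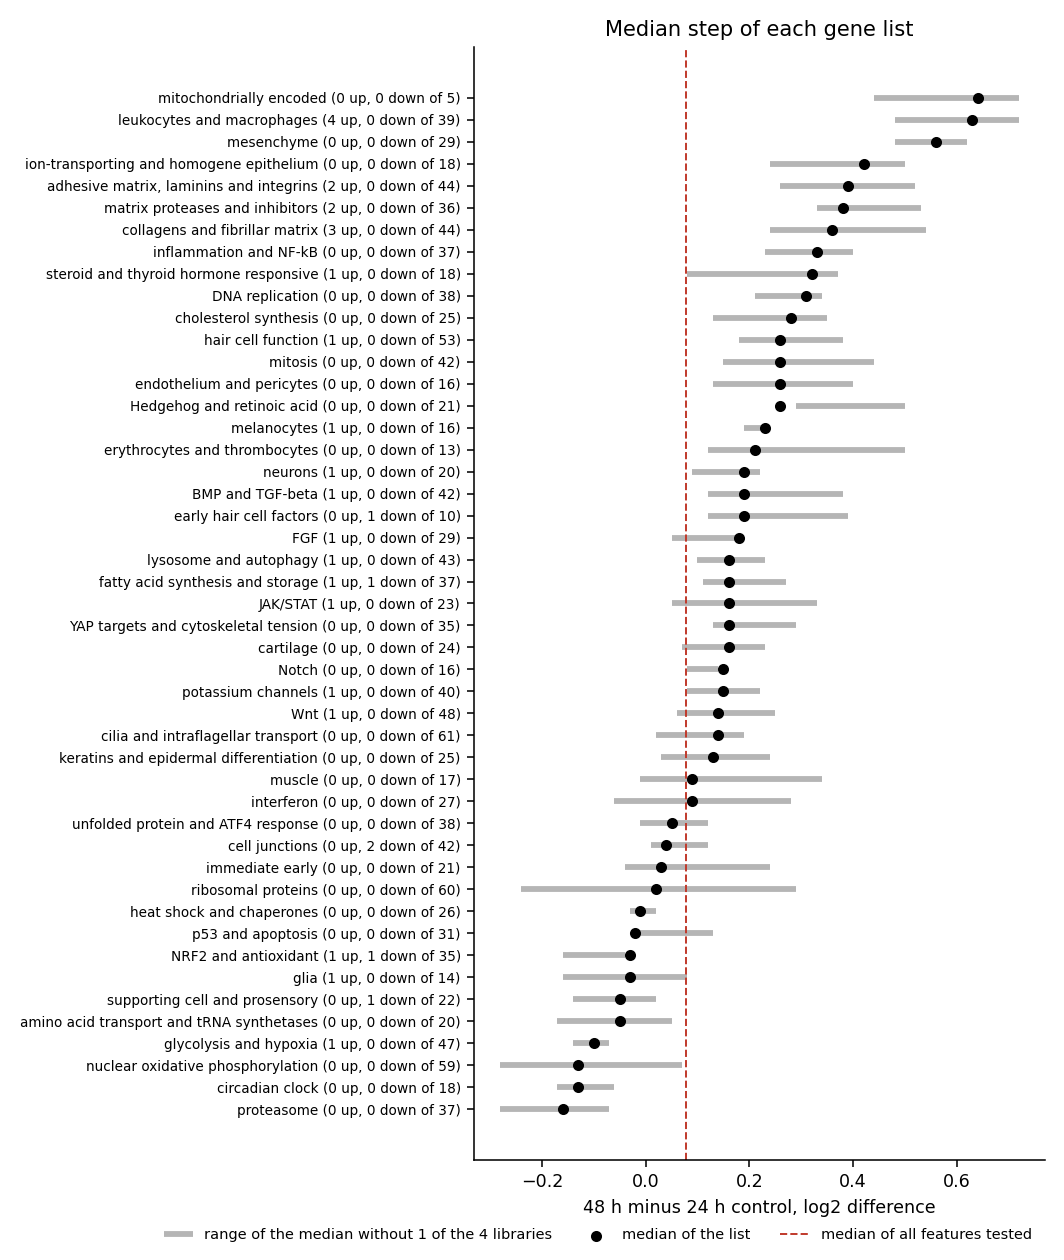
Median fitted log2 difference (48 h minus 24 h controls) of each gene list (black points), its range when 1 of the 4 libraries is left out (grey bars), and the median of all tested features, 0.08 (dashed line); names give the members that passed upward and downward of those tested. Mitochondrially encoded genes (0.64) and leukocytes (0.63) have the highest medians and the proteasome (-0.16) the lowest; the bar of ribosomal proteins crosses 0.

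Several large gene classes held few or no calls. All 5 mitochondrially encoded genes in the table had positive values, with a median of 0.64 and 0 calls by limma (4 at an unadjusted p under 0.05). Their summed level was 7459 and 9509 RPKM at 24 h and 11720 and 12690 RPKM at 48 h, without overlap. Nuclear genes of oxidative phosphorylation did not share that direction: 14 of 59 were positive and the median was -0.13, with 0 calls and 1 gene at an unadjusted p under 0.05. That median was between -0.28 and 0.07 when 1 of the 4 libraries was left out, so its sign is not stable. Subunits of the proteasome were negative in 32 of 37 cases (median -0.16; 0 calls by limma, 6 at an unadjusted p under 0.05). The 60 ribosomal protein genes had a median of 0.02 with 0 calls and 0 at an unadjusted p under 0.05. Their median was -0.07 after median-of-ratios rescaling, and their summed level of 38750 and 55620 RPKM in the 24 h libraries enclosed that of both 48 h libraries.

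Cell cycle genes had small positive values, where 59.8% of all tested features were positive and their median was 0.08. In the mitosis list 40 of 42 tested members were positive with a median of 0.26, 0 passed by limma and 7 had an unadjusted p under 0.05. BIRC5, survivin, had the largest of these 7 values, at 1.79 and 1.89 RPKM and then at 3.67 and 4.68 RPKM (0.86, adjusted p = 0.187). In the DNA replication list 32 of 38 were positive with a median of 0.31, and 0 passed. An unadjusted p under 0.05 was found in 9, all upward, among them the helicase subunit MCM4 (0.73). The share of all features at that unadjusted level is not given, so these counts have no background. The summed mitosis level overlapped, at 315.8 and 318.0 RPKM and then 340.9 and 301.6 RPKM. A large part of that sum was STMN1, at 160.0 and 182.6 RPKM and then 160.8 and 126.4 RPKM, which had a negative value (-0.26). The overlap of the sum thus says little about the other members.

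Of 47 tested genes of glycolysis and the response to hypoxia 1 passed, upward, where 0.738% of all tested features rose. The median of the 47 was -0.10. ANGPTL4, a secreted inhibitor of lipoprotein lipase, rose from 7.94 and 14.6 RPKM to 29.9 and 24.0 RPKM (1.23 ± 0.26; limma, adjusted p = 0.0382). The glycolytic enzyme gene LDHA was at 2080 and 2326 RPKM and then at 1872 and 1946 RPKM (-0.20, adjusted p = 0.772), and the glucose transporter SLC2A3 was at 124.2 and 131.1 RPKM and then at 76.0 and 68.8 RPKM (-0.81, adjusted p = 0.0716). Among 25 tested genes of cholesterol synthesis 20 were positive (median 0.28) and 0 passed by limma, with 5 at an unadjusted p under 0.05. In the antioxidant list SEPP1, the selenium carrier selenoprotein P, rose from 6.37 and 6.72 RPKM to 15.1 and 14.5 RPKM (1.07), while GSTT1 fell.

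The step before, from 0 to 24 h in controls, shares the 24 h libraries with this one, so the values are given side by side. A deviation of the 24 h libraries would move the 2 steps in opposite directions, so opposite signs are favoured. There 3153 features passed (25.9%), 1755 higher (14.4%) and 1398 lower (11.5%) at 24 h. ATOH1 differed by 1.55 in the earlier step (limma, adjusted p = 0.00365) and by -2.02 in the later one. For TMC2 the values were -1.03 and 1.05, for FGF3 -1.67 and 0.96, for WNT5A -1.10 and 0.95, and for PLOD1 -0.66 and 0.81. For SLC1A3 both were negative, -1.21 and -1.03, as for RCAN2, -0.71 and -1.18, and for RLN3, -0.83 and -2.04. PODN was positive in both, with 0.85 and 1.46. In the ribosomal list 56 of 60 genes passed upward from 0 to 24 h (median 0.92), against 0 in the following day. Leaving out library 1 or 2 at 0 h gave 1453 and 1931 calls in the earlier step, and leaving out library 2 at 24 h gave 1995.

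After 48 h the falls mostly went further. For 37 of the 41 features that fell, the median of the 7 control libraries at 72 to 168 h was below the 48 h mean, for the other 4 it was between the 48 and 24 h means, and for 0 it was at or above the 24 h mean. For 63 of the 90 that rose, the later median was beyond the 48 h mean, for 13 it was between the means and for 14 it was not above the 24 h mean. TMC2, FGF3 and WNT5A were among those 14, with later medians of 7.86, 1.25 and 1.78 RPKM. MMP2 had a later median of 153.5 RPKM and PODN one of 17.8 RPKM, both above 48 h. Later controls are single libraries at 72, 96 and 120 h. The same shares over all tested features were not counted, so these counts cannot be read as particular to the calls.

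**Figure D4:**
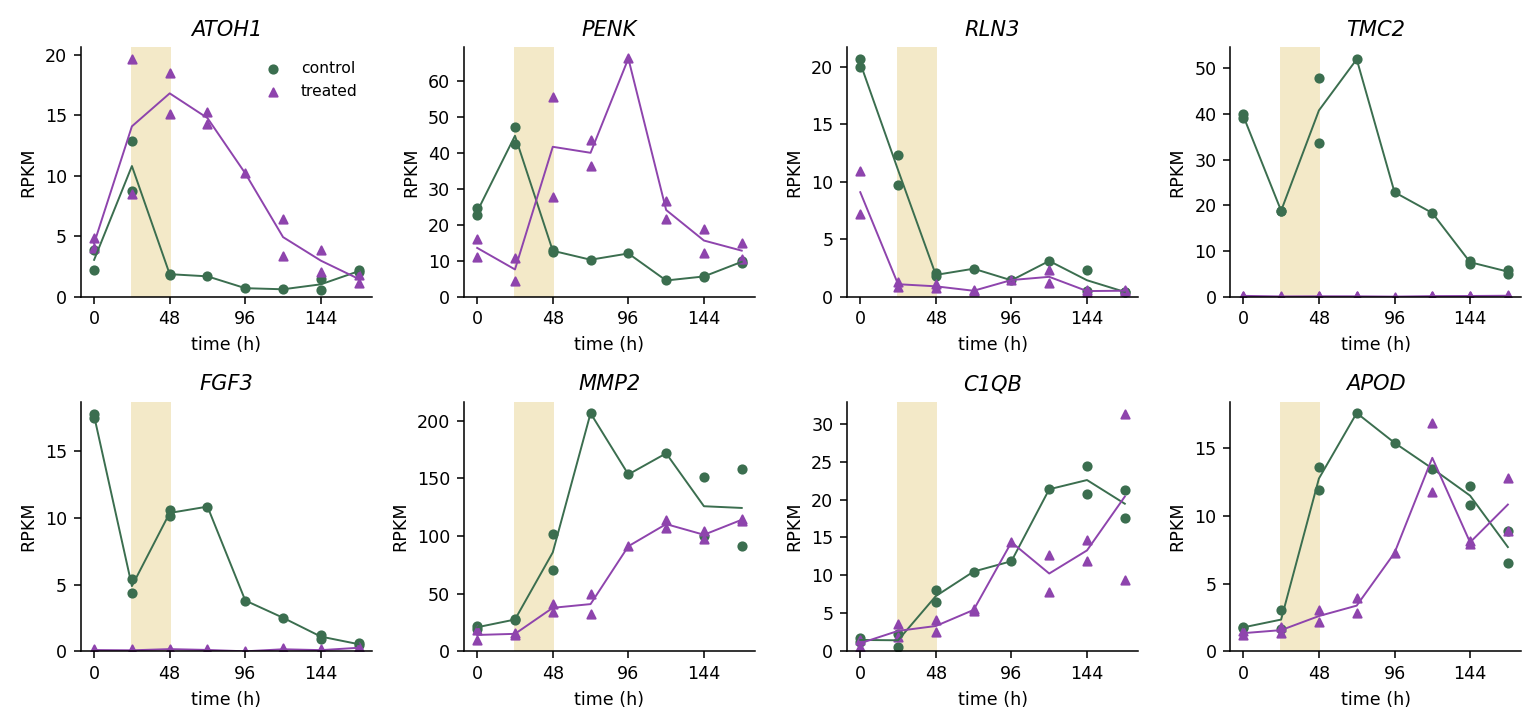
RPKM (linear axis) of 8 genes against time in control (green circles) and treated (purple triangles) libraries, with lines through the group means and the 24 to 48 h interval shaded. Control ATOH1 and PENK are highest at 24 h, control TMC2 and FGF3 are lower at 24 h than at 0 and 48 h, and treated TMC2 and FGF3 stay below 0.35 RPKM.

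The same interval in streptomycin-treated papillae shares no library with the control step. There 208 features passed (1.71%), 193 higher (1.58%) and 15 lower (0.123%) at 48 h. Of the 90 control rises, 77 had a positive value in treated papillae, against 59.4% of all tested features, and 12 passed there in the same direction. The median treated difference of the 90 was 0.35, against 0.94 in controls. The 90 were chosen by their control values, so these medians are not like for like and show no weaker rise in treated papillae. APOA1 rose in both, from 19.5 and 16.2 RPKM to 94.6 and 84.1 RPKM in treated papillae (2.27; limma, adjusted p = 0.0283), as did MMP2 (1.26), MMP11 (1.38), LOXL2 (1.18), PLOD1 (0.73) and LAMC1 (0.57). APOD did not pass there, with 1.78 and 1.36 RPKM and then 3.07 and 2.14 RPKM (0.48, adjusted p = 0.346). For 0 of the 90 rises did the control and treated steps differ by limma's test of the difference at the adjusted threshold, although 48 had an unadjusted p under 0.05. With no filter on low values 2 of them passed, and 1 did after rescaling or with a pseudocount of 0.1. Some of the rises also passed without control 24 h library 2. With a replicate block by library number, not known to pair samples, 4 passed across all libraries and 5 within each time. Without treated library 1 at 24 h or at 48 h the treated step held 16 calls, and without treated library 2 at 48 h it held 40.

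The 41 control falls had no shared direction in treated papillae. Of the 41, 15 had a negative treated value, the median treated difference was 0.14 and 0 passed downward by limma (6 had an unadjusted p under 0.05). Over all tested features 59.4% had a positive treated value and the median was 0.07. The test of the difference between steps called 24 features (0.197%), each with a lower value in the control step, and 7 of them were control falls. With no filter on low values 7 of 20 had a higher one, and after rescaling 3 of 53. Higher calls also came with a pseudocount of 0.1, with either replicate block and without control 24 h library 2. The 41 were chosen by their control values, which the test of the difference also uses, so control falls are favoured among its lower calls. PENK fell in controls while in treated papillae it rose from 4.35 and 10.85 RPKM to 27.8 and 55.6 RPKM (2.34; limma, adjusted p = 0.00173), so the steps differed by -4.07 ± 0.46 (adjusted p = 0.000506). CDH20 rose in treated papillae from 0.421 and 0.843 RPKM to 3.12 and 1.76 RPKM (1.06), a difference between steps of -2.68 ± 0.37. The others were PADI3 (-1.72), SEMA6D (-1.64), RGS9 (-1.62), GSTT1 (-1.76) and SLC1A3 (-1.79), whose treated steps were positive and did not pass. ATOH1 was at 8.52 and 19.7 RPKM and then at 15.2 and 18.5 RPKM in treated papillae, and the difference of -2.36 between its steps did not pass (adjusted p = 0.0541). The test gave 6 calls without control 24 h library 1, control 48 h library 2, treated 24 h library 1 or treated 48 h library 1, 7 without control 48 h library 1 and 56 without treated 24 h library 2.

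**Figure D5:**
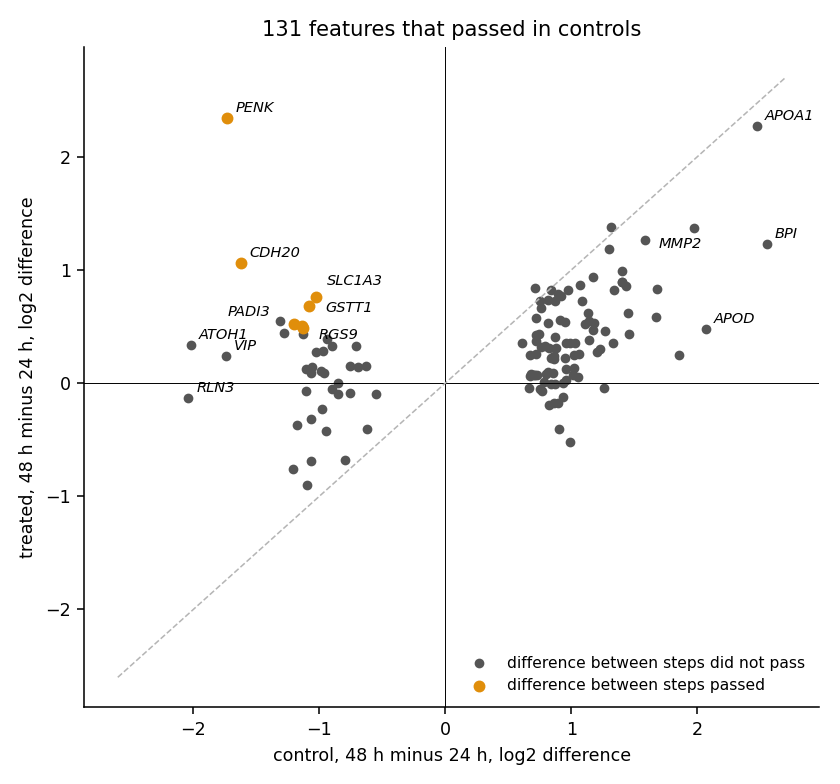
Fitted log2 difference, 48 h minus 24 h, in controls (x axis) and in treated papillae (y axis) for the 131 features that passed in controls, with equal values on the dashed line. Orange points (7) are those whose steps differed, all control falls with PENK at the top (-1.73 and 2.34). Most rises lie below the dashed line and above 0, where the choice of features by their control values favours that side.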

How the data were processed

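Values are RPKM as deposited by the authors, which scale reads to gene length and library size, 1 per feature and library, with the alignments of each library in the same table. TopHat 1.4.0 and Partek 6.6 are named, without roles, per the submitters' processing notes. No positions are given, since for the genome build, annotation and strand setting the entry is "not given in the sources used here". Of 32 table columns, 28 matched a sample and 4 were not used. The table lists 17684 features, and the number of reads per gene is not known, so no counting intervals are given.

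A feature was kept where 2 or more of the 28 libraries reached 1 RPKM. On log2(RPKM + 1), limma 3.58.1 in R 4.3.3 fitted 1 mean for each of 16 groups, with 12 residual degrees of freedom. The fit used lmFit and eBayes with an intensity trend, and tests were two-sided. The spread comes from the control and treated groups that held 2 libraries. Passing means a Benjamini-Hochberg adjusted p under 0.05 over all features tested. List counts at an unadjusted p under 0.05 are given without the share of all features at that level, so they have no background. An exact permutation test of 2 against 2 cannot go below 0.333. Fold values quoted are ratios of mean RPKM. The fit was tested on simulated data.

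Named genes are the 12 largest rises and 12 largest falls with a symbol, a mean RPKM of at least 1 and no overlap, up to 4 called members per direction of each of 47 gene lists (1646 of 2081 entries matched a feature), and 12 followed genes, of which 1 was not in the table and 1 is not reported here. Other genes are named as members of a list, chosen after their values were seen. Genes of close families may share reads. The members, lists and rule were chosen with earlier results of these data known. Alternatives were another pseudocount, filter, variance model, rescaling or set of samples, a replicate block by library number, and leaving out each library.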

Additional observations from a re-analysis of the deposited data

Results flagged for a closer look

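The difference between the control and treated 24 to 48 h steps passed limma's test in 24 features. It was -4.07 (log2) in PENK, -2.68 in CDH20, -1.72 in PADI3, -1.64 in SEMA6D, -1.62 in RGS9, -1.76 in GSTT1 and -1.79 in SLC1A3, which fell in controls. In 3 other list members the control step did not pass and the treated step did: the proton pump subunit gene ATP6V1C2 (-1.68), the integrin gene ITGB6 (-2.26) and the thrombospondin gene THBS1 (-1.43). ITGB6 was at a mean of 19.3 RPKM and then 13.4 in controls and at 3.43 and then 14.1 in treated papillae. THBS1 was at 149.2 and then 130.3 RPKM in controls and at 106.3 and then 245.2 in treated papillae. Groups of 2 libraries are too small for a test of single outlying libraries.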

How the results depend on the processing

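The control step gave 131 calls, 90 higher and 41 lower. With only the 13 control libraries in the fit there were 51 (35 and 16), and with only the 4 compared 20 (13 and 7). Median-of-ratios rescaling gave 256 with 156 lower, and moved the median of all features from 0.077 to 0.003. A replicate block across all libraries gave 280 (199 and 81) and one within each time 769 (520 and 249); library numbers were not known to pair samples, and deviations of same-numbered libraries correlated at 0.215 (24 with 48 h controls), 0.031 (24 with 48 h treated), 0.291 (control with treated, 24 h) and 0.105 (48 h). Leaving out 1 library gave 0 to 56 calls, 0 to 36 higher and 0 to 20 lower, where a lone library was assumed to vary like the other groups. No named gene changed sign in any alternative; of the 42 that passed, 8 still passed with only the 4 libraries, 24 with only the controls or without a filter on low values, 30 with a pseudocount of 0.1, and 0, 15, 2 and 5 without 24 h library 1, 24 h library 2, 48 h library 1 and 48 h library 2. The treated step (208 calls) gave 410 and 861 with the blocks and 16 to 159 without 1 library. The difference between steps (24 calls) gave 53 after rescaling, 58 and 212 with the blocks and 6 to 56 without 1 library; the higher calls among them, 0 as reported, reached 41 with the block within each time, 5 of them control rises. The control 0 to 24 h step (3153) gave 1453 to 2170 without 1 library. The other settings kept these counts within 1.5 times. With 2 libraries a group and depth per gene unknown, genes that did not pass cannot be called unchanged, and the 27 rises and 3 falls under 5 RPKM at both times rest on the lowest values. The cause of these shifts was not tested. Leaving out 1 library cannot reverse the sign of a named gene whose groups did not overlap.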

Other observations

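Further features that passed lie outside the lists and the rule for named genes, and were chosen after their values were seen. CX3CL1, the membrane-bound chemokine fractalkine, rose in the control step from 0.272 and 0.521 RPKM to 1.96 and 3.13 RPKM (log2 difference 1.33; limma, adjusted p = 0.0361). The chemokine receptor gene CXCR4 fell from 35.3 and 51.5 RPKM to 21.3 and 17.3 RPKM (-1.11, adjusted p = 0.0342). CH25H, which makes 25-hydroxycholesterol, was listed at 0 in both 24 h libraries and at 1.22 and 1.27 RPKM at 48 h. The plexin genes PLXND1 (1.17) and PLXNC1 (0.97) rose, as did the netrin receptor gene UNC5B (0.72). The plexin genes tested were not counted, so nothing follows for the family. TBX3, a T-box factor, rose from 2.22 and 4.27 RPKM to 5.93 and 8.69 RPKM (0.99). ATP12A, a proton and potassium pump, fell from 22.4 and 16.2 RPKM to 6.96 and 10.01 RPKM (-1.10) and had a median of 0.886 RPKM in later controls. PAPSS2, which makes the sulfate donor for matrix proteoglycans, fell from 110.8 and 76.9 RPKM to 42.6 and 44.5 RPKM (-1.07).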
